A study of Mus musculus with 16 samples.

Results

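The genes described here are 34 genes of the extracellular matrix and its remodelling, namely collagens, glycoproteins, elastic fibre proteins, crosslinking enzymes, proteases and protease inhibitors. They were found by their symbols among the 40879 gene symbols of the count files, and all 34 were present. The data are 3' RNA sequencing (QuantSeq, which reads near the poly(A) end of a transcript) of whole kidneys of male wild type C57BL/6 mice, in 16 libraries. Old + YM (3 libraries) and Old + PM (3 libraries) were aged mice given Yukmijihwang-tang (YM) or Palmijihwang-tang (PM), herbal formulas, at an oral dose of 100 mg/kg/day, 5 days weekly, begun at 19 months and ended at 24 months. Old (5 libraries) were aged mice without a formula, and Young (5 libraries) were 3 months old. For the Old mice the sources used here give no age at sampling. The Old + YM, Old + PM and Old mice shared an acclimatization of 5 months. In one passage the labels word the dose of the PM mice as if it were YM, and the samples' own group names were used. Whether every library is a separate mouse is not stated, so the p-values stand for the spread among libraries, which may be technical.

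The extracellular matrix is the protein scaffold around and beneath cells. In the kidney, fibroblasts and pericytes of the interstitium make most of the fibrillar collagen, while tubule cells, endothelium and podocytes rest on basement membranes of type IV collagen and laminin. Lysyl oxidases crosslink collagen and elastin, metalloproteinases cut matrix proteins, and tissue inhibitors of metalloproteinases hold those enzymes in check. Gain of interstitial matrix, or fibrosis, is a known feature of ageing kidneys.

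A pair of promoter sequences is shown, those of Timp2 and Mmp14. Both genes had more RNA in Old than in Young kidneys, as given below, and theirs were the only such promoters at hand. They also encode partners of one reaction. Mmp14 is a metalloproteinase anchored in the cell membrane, and Timp2, an inhibitor, can bind it in a complex that takes part in activating the secreted protease Mmp2. Each sequence runs from 250 bases before to 50 bases after the start site, 5′ to 3′ on the gene's strand, and comes from RefSeq (build GRCm38.p6), whose table held 2 of the 7 genes that passed the test in Old against Young. Capitals mark the GC box GGGCGG. The Timp2 window lies at chr11:118355362-118355661 on the minus strand and the Mmp14 window at chr14:54431348-54431647 on the plus strand. GENCODE M21 starts the Timp2 gene 329 bases upstream of the RefSeq start, so that by GENCODE the whole Timp2 window lies within the gene; for Mmp14 the 2 annotations differ by 14 bases.
Timp2: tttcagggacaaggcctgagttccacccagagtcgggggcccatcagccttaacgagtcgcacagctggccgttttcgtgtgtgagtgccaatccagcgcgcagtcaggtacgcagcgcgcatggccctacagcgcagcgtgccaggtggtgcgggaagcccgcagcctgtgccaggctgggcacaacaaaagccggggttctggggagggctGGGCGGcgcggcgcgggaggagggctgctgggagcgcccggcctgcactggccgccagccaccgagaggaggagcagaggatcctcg
Mmp14: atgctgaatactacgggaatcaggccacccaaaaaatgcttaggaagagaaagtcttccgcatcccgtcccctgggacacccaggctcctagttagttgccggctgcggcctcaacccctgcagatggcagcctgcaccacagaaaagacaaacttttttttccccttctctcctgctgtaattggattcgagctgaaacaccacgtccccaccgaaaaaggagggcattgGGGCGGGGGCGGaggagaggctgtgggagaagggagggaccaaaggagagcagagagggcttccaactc

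The Timp2 window had a GC content of 68.7% and 1 GC box, with its first base at -37 from the start site. In the Mmp14 window the GC content was 56% and the 2 GC boxes began at -19 and -13, side by side. Neither window held the AP-1 motif TGANTCA or the SMAD motif CAGAC on either strand, or the TATA motif TATAAA on the plus strand. Over all 32851 promoters of the table, windows of the same length held the AP-1 motif in 7.81%, the SMAD motif in 49.6%, the TATA motif in 8.32% and the GC box on either strand in 35.7%. The GC box was added to the search after the sequences had been seen.

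Libraries held 8223008 to 10914515 counts, and the mitochondrial genome took 14.98% to 27.7% of them. Kidney markers were abundant: 7 proximal tubule genes summed to 6541 to 10218 counts per 1000000 counts of the library (CPM, on TMM-scaled library sizes) and 7 podocyte genes to 193 to 274 CPM. A pair of aged libraries stood apart within their groups for the matrix genes. Old 5 was the highest of the 5 Old libraries for 22 of the 33 matrix genes that passed the filter on low counts. Old + PM 3 was the lowest of its 3 libraries for 26 of the 33, and Old + PM 2 the highest for 23. These ranks were not counted over all genes, so a shift of the whole library cannot be told apart. Old 5 and Old + PM 2 also had the most genes detected in their groups, 18934 and 18489. The mean z-score of the 33 genes was 1.33 in Old 5 and -0.85 in Old + PM 3, against 0.25 to 0.29 in the 3 Old + YM libraries and -0.84 to -0.24 in the 5 Young libraries. Old 5 also had the highest summed macrophage markers, 552 CPM over 9 genes, against 107 to 198 CPM in the other Old libraries, and the lowest proximal tubule sum, 6541 CPM. For many of the calls and counts that changed when they were left out, the value without them is given.

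**Figure D1:**
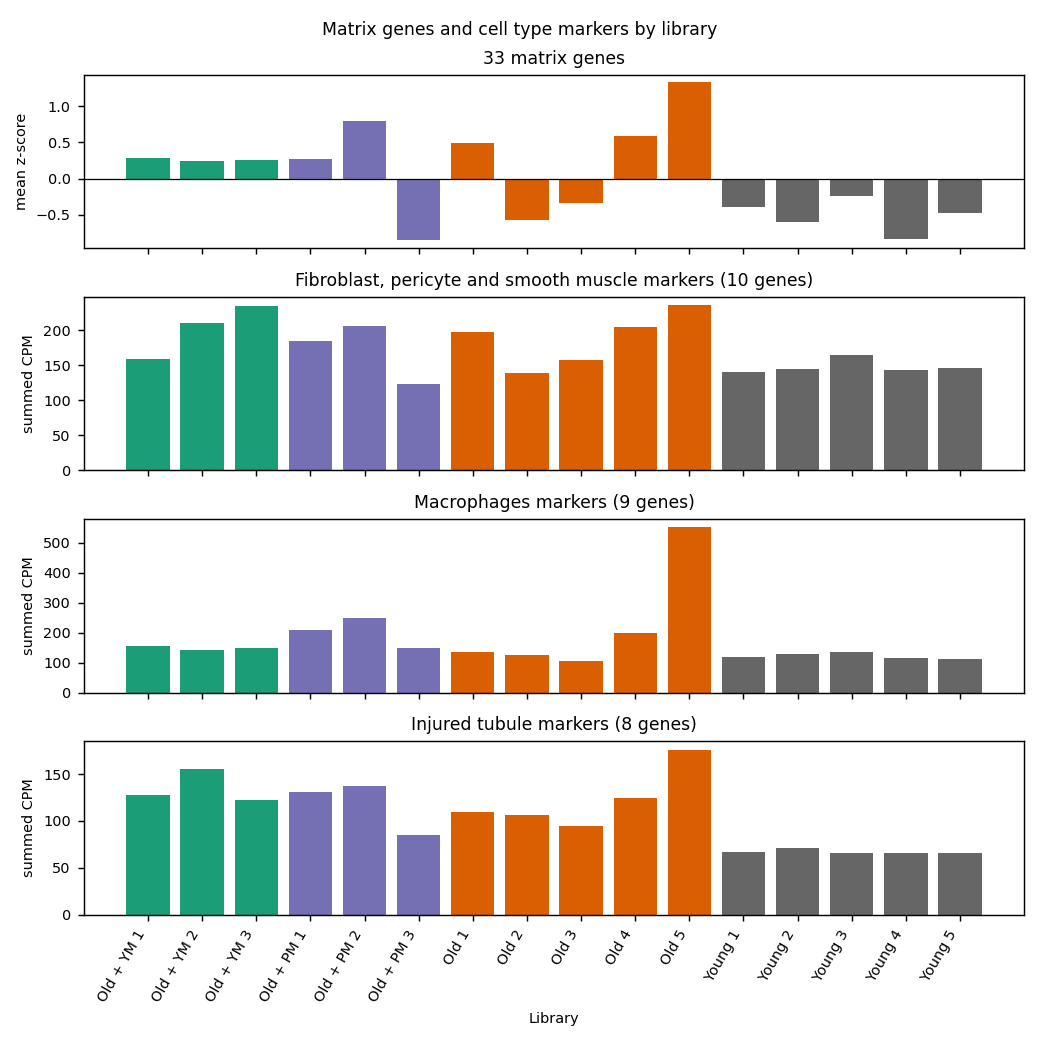
Bars show each library's mean z-score over 33 matrix genes (top, no unit) and the summed CPM of 3 marker lists, with Old + YM, Old + PM, Old and Young from left to right. Old 5 is the highest bar in all 4 panels, and Old + PM 3 has the lowest matrix z-score and the lowest fibroblast, pericyte and smooth muscle sum, 124 CPM.

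**Figure D2:**
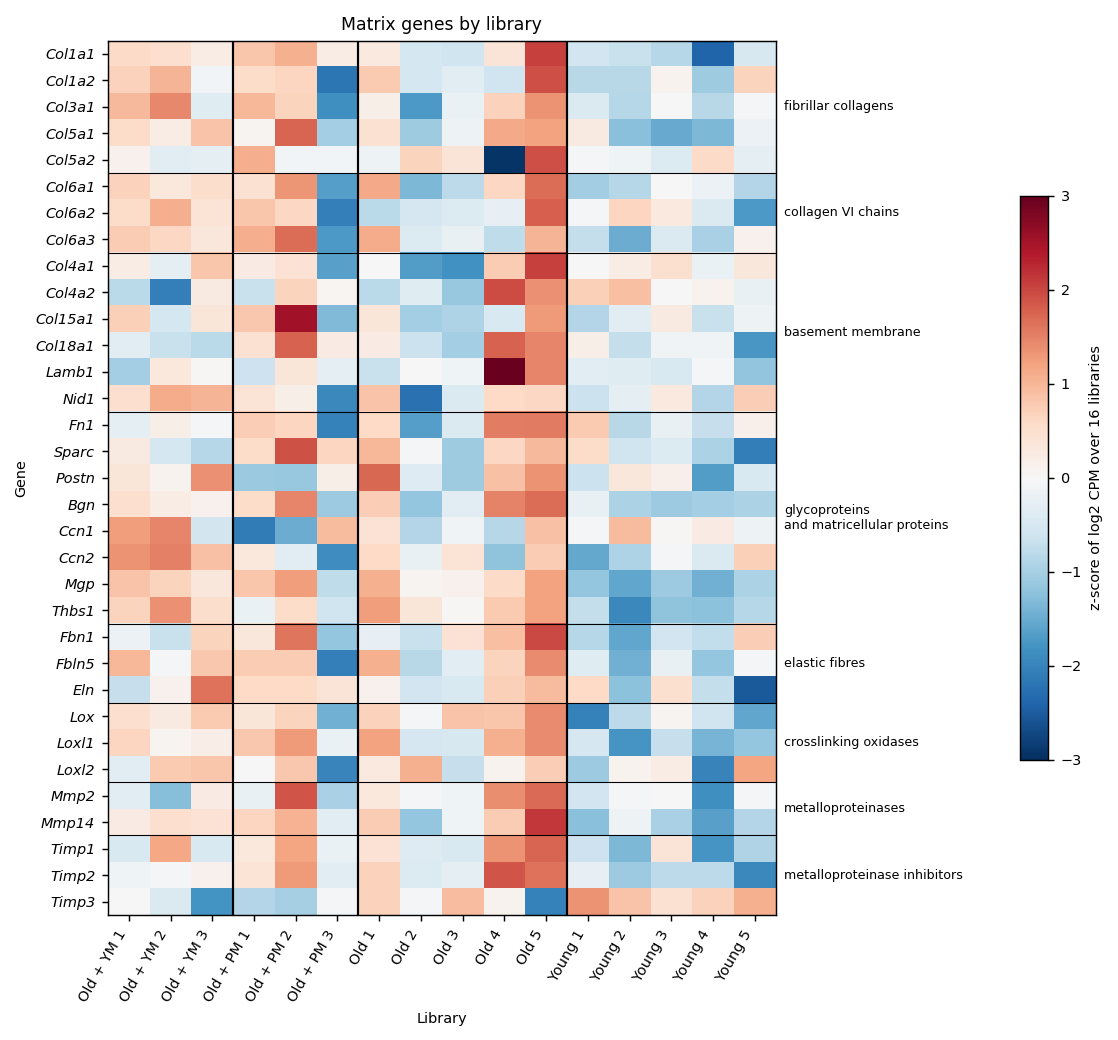
Each row is a matrix gene, grouped by role, and each column a library; colour is the z-score of log2 CPM over the 16 libraries. The Old 5 column is red in most rows, the Old + PM 3 column blue in most rows, and Mgp, Thbs1 and Loxl1 run blue across the Young columns.

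Old kidneys were compared with Young kidneys to ask which matrix genes differ between them. An acclimatization is given for the aged groups only, so age and acclimatization cannot be told apart. RNA of 7 of the 33 matrix genes tested was higher in Old kidneys, and none was lower. These were Mgp, Thbs1, Loxl1, Timp2, Lox, Mmp14 and Col1a1, with fitted folds from 1.62 (Timp2) to 4.65 (Lox). They include both a fibrillar collagen chain and 2 of the 3 lysyl oxidases, while no basement membrane, collagen VI or elastic fibre gene passed. The 7 genes are 21.2% of those tested, where 6.47% of all 14665 genes were called higher and 7.13% lower in Old. The genes were chosen with earlier results of these data known, so these shares are a description and no independent evidence. The median log2 fold change of the 33 was 0.50 and that of all genes 0.02; 29 of the 33 values were above 0. In whole kidney RNA, more cells of a type and more RNA per cell cannot be told apart.

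A gene was called when its p-value, adjusted over all genes by the Benjamini-Hochberg method in edgeR's quasi-likelihood test, was under 0.05. Without Old 5, 5 of the 7 genes were called and the median was 0.28; the calls lost were those of Mmp14 and Col1a1. Mgp, Thbs1, Loxl1, Timp2 and Lox were called in each of the 26 alternative fits. Only 3 of the 33 genes, Mgp, Thbs1 and Loxl1, had every Old library above every Young library, where 4.21% of all genes did so.

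**Figure D3:**
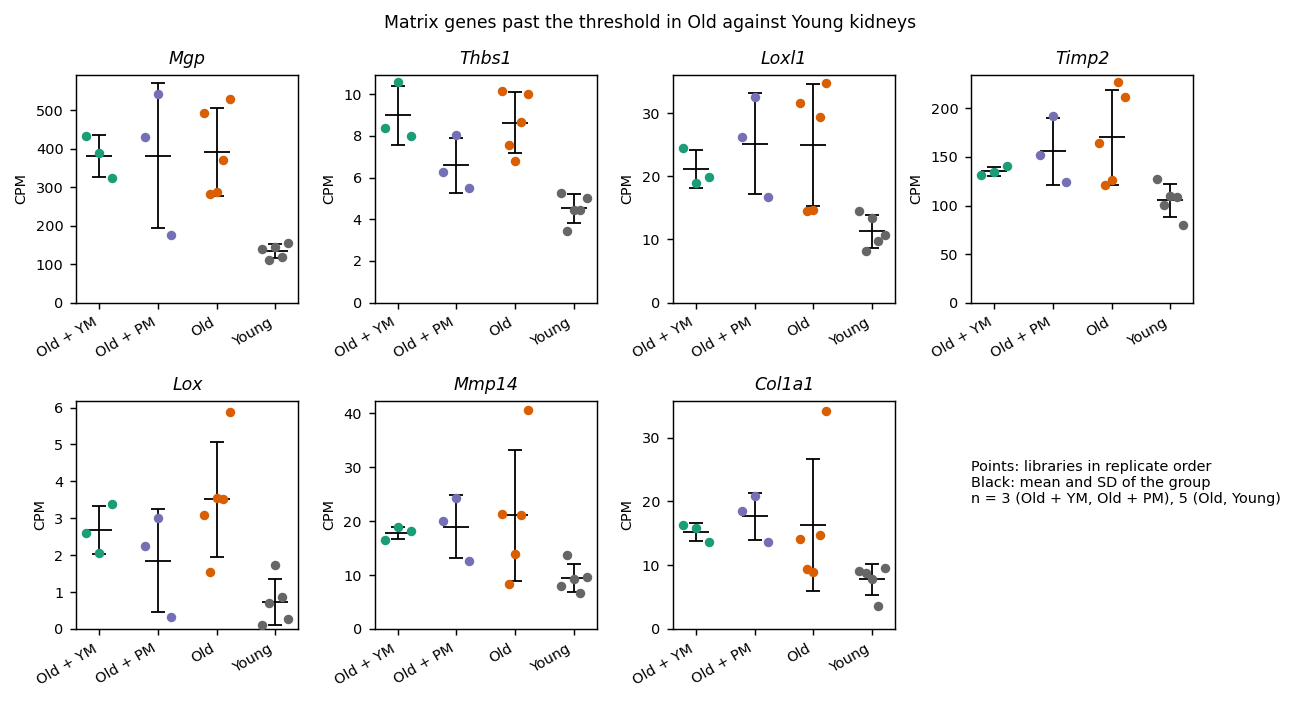
Points are CPM of single libraries for the 7 genes called in Old against Young, with the group mean and SD in black (n = 3 for Old + YM and Old + PM, 5 for Old and Young); every axis starts at 0. Mgp is between 282 and 528 CPM in Old and between 111 and 156 CPM in Young, and Old 5 is the highest point of Col1a1 and Mmp14.

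Among the fibrillar collagens, 1 of 5 genes was called. Col1a1, which encodes the first chain of type I collagen (chr11:94936224-94953042, plus strand), had 14.1, 9.37, 8.97, 14.8 and 34.3 CPM in the Old libraries, against 9.09, 8.74, 7.90, 3.56 and 9.60 CPM in the Young libraries. Old 5 was far above the other Old libraries, Young 4 was the lowest of all, and the groups overlapped. Its log2 fold change was 1.07 (SE 0.34, adjusted p = 0.0449). Without Old 5 it was 0.60 (adjusted p = 0.130), and the call was also lost without Young 1, 2, 3 or 4, without Old 1 and without any single one of the 6 treated libraries (adjusted p from 0.0507 to 0.0894). Col1a2, the partner chain, averaged 52.7 ± 28.8 CPM in Old kidneys and 37.3 ± 13.2 CPM in Young kidneys (SD, n = 5 each; log2 fold change 0.50, adjusted p = 0.458). Col3a1, Col5a1 and Col5a2 had log2 fold changes of 0.34, 0.66 and 0.18, and none passed (adjusted p = 0.487, 0.150 and 0.730).

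Collagen VI forms beaded filaments around cells, and none of its 3 chains was called. Their log2 fold changes were 0.77 for Col6a1, 0.17 for Col6a2 and 0.50 for Col6a3, with adjusted p-values of 0.193, 0.794 and 0.269. Col6a2 was at 10.9 CPM in Old 5, against 3.68 to 4.68 CPM in the other Old libraries. The 6 basement membrane genes had a median log2 fold change of 0.11, the lowest of the 8 roles, and none was called. Col4a1, one of the chains of the common type IV collagen, averaged 127 ± 29.9 CPM in Old kidneys and 130 ± 4.99 CPM in Young kidneys (SD, n = 5 each), with a log2 fold change of -0.03 and a 95% interval from -0.30 to 0.24. Its partner Col4a2 averaged 87.3 ± 18.1 CPM in Old kidneys and 87.2 ± 6.29 CPM in Young kidneys, with an interval from -0.26 to 0.26. Lamb1 (laminin), Nid1 (nidogen, which links laminin to type IV collagen), Col15a1 and Col18a1 had log2 fold changes of 0.21, 0.09, 0.12 and 0.23 (adjusted p from 0.193 to 0.866).

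Of the 8 glycoproteins and matricellular proteins, 2 were called. Mgp, or matrix Gla protein, an inhibitor of soft tissue calcification (chr6:136872435-136875823, minus strand), had 492, 282, 288, 369.7 and 528 CPM in the Old libraries, against 138, 111, 145, 118 and 156 CPM in the Young libraries. Every Old library was above every Young library. Its log2 fold change was 1.55 (SE 0.26, 95% interval 0.99 to 2.11, adjusted p = 0.00166), the smallest adjusted p among the 33 genes. Thbs1, or thrombospondin 1, which can activate latent TGF-β (chr2:118111876-118127133, plus strand), had 10.2, 7.56, 6.78, 8.67 and 9.99 CPM in the Old libraries, against 5.27, 3.46, 4.45, 4.42 and 5.00 CPM in the Young libraries. The groups did not overlap here either. The log2 fold change of Thbs1 was 0.93 (SE 0.19, adjusted p = 0.00338).

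The other 6 genes of this role did not pass. Bgn, the small proteoglycan biglycan, had 126, 69.3, 90.2, 159.6 and 170.0 CPM in the Old libraries, against 93.6, 74.4, 71.0, 72.8 and 74.4 CPM in the Young libraries, with a log2 fold change of 0.67 (adjusted p = 0.0685). Bgn was called without Old + PM 3 (0.66, adjusted p = 0.0335), Old 2 (0.83, 0.0117) or Old 3 (0.76, 0.0498). Without Old 5 it was not called (0.52, adjusted p = 0.193). Postn, or periostin, had 1 to 19 counts per library in Old and 0 to 6 in Young kidneys, with a log2 fold change of 1.501 and a 95% interval from -0.10 to 3.10 (adjusted p = 0.209). Fn1 (fibronectin) and Sparc (a collagen-binding protein) had log2 fold changes of 0.34 and 0.26, with adjusted p-values of 0.493 and 0.193. Ccn1 and Ccn2 are matricellular proteins whose genes respond to TGF-β and mechanical signals. Ccn2 spread widely, from 7.41 to 64.1 CPM in Old and from 5.06 to 61.6 CPM in Young kidneys (log2 fold change 0.68, adjusted p = 0.607), and Ccn1 had a log2 fold change of -0.17 (adjusted p = 0.820). The last exon of Ccn2 overlaps another gene on the opposite strand, Gm15270, and the sources used here do not say whether counting used the strand.

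Elastic fibres join elastin (Eln) to fibrillin microfibrils (Fbn1) with the help of fibulin 5 (Fbln5). None of the 3 was called, with log2 fold changes of 0.37, 0.53 and 0.51 for Eln, Fbn1 and Fbln5 and adjusted p-values of 0.518, 0.220 and 0.195. Of the 3 lysyl oxidases 2 were called. Loxl1, which is needed for elastic fibre assembly (chr9:58287738-58313186, minus strand), had 31.6, 14.5, 14.7, 29.4 and 34.8 CPM in the Old libraries, against 14.5, 8.13, 13.4, 9.71 and 10.8 CPM in the Young libraries. Old 2 and Old 3 lay just above the highest Young library, so the groups met without overlapping. Its log2 fold change was 1.15 (SE 0.26, adjusted p = 0.00699). Lox, which crosslinks collagen and elastin (chr18:52516067-52529867, minus strand), was a gene of few counts, with 31, 16, 34, 36 and 59 counts in the Old libraries, against 1, 7, 17, 8 and 2 counts in the Young libraries. Only Old 2, with 16 counts, fell below a Young library, Young 3 with 17. The log2 fold change of Lox was 2.22 (SE 0.57, 95% interval 1.04 to 3.40, adjusted p = 0.0129), or 3.51 ± 1.56 CPM in Old and 0.732 ± 0.635 CPM in Young kidneys (SD, n = 5 each). Loxl2, which crosslinks type IV collagen, had a log2 fold change of 0.26 (adjusted p = 0.643).

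The proteases and their inhibitors gave 1 call each. Mmp14 (chr14:54431612-54445364, plus strand) had 21.3, 8.42, 13.9, 21.2 and 40.6 CPM in the Old libraries, against 8.06, 13.7, 9.21, 6.69 and 9.60 CPM in the Young libraries. Old 2 lay within the Young range, and Old 5 was the highest. Its log2 fold change was 1.16 (SE 0.33, adjusted p = 0.0306). Without Old 5 it was 0.77 (adjusted p = 0.0733), and the call was also lost without Young 1, Young 3, Young 4 or Old 1 (adjusted p from 0.0545 to 0.0757). Timp2 (chr11:118301069-118355740, minus strand) had 164, 121, 126, 228 and 212 CPM in the Old libraries, against 127, 100.4, 109.6, 109 and 79.9 CPM in the Young libraries, with a log2 fold change of 0.69 (SE 0.17, adjusted p = 0.0122). Old 2 and Old 3 were below Young 1, and the other Old libraries were above all Young libraries.

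Mmp2, or gelatinase A, which the Mmp14 and Timp2 proteins act on, averaged 4.42 ± 1.73 CPM in Old kidneys and 2.58 ± 0.778 CPM in Young kidneys (SD, n = 5 each; log2 fold change 0.78, adjusted p = 0.173). Mmp7, or matrilysin, had too few counts to be tested, with 2, 2, 2, 9 and 23 counts in the Old libraries and 0, 0, 4, 0 and 2 counts in the Young libraries. In the treated libraries Mmp7 had 0 to 6 counts. Timp1 had 15, 6, 5, 40 and 57 counts in the Old libraries, against 4, 1, 14, 0 and 2 counts in the Young libraries. Its log2 fold change of 2.41 had a 95% interval from 0.58 to 4.25 and did not pass (adjusted p = 0.0758). Timp3, an inhibitor held in the matrix, averaged 2314 ± 405 CPM in Old kidneys and 2677 ± 154 CPM in Young kidneys, with a log2 fold change of -0.21 (adjusted p = 0.260). The last exon of Timp3 overlaps Syn3 on the opposite strand, while no other annotated gene overlaps the last exon of any of the 7 called genes.

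The spread among Old libraries was larger than among Young libraries for 27 of the 33 genes, with a median coefficient of variation of 35.2% in Old and 23.2% in Young. Without Old 5 it was larger in Old for 23 of the 33, with a median of 31.2%. The spread was not compared over all genes, so a larger spread in Old cannot be called particular to the matrix genes. Markers of some cell types also differed between Old and Young kidneys, where 6.47% of all genes were called higher and 7.13% lower. Of 9 tested markers of fibroblasts, pericytes and smooth muscle, 2 were called higher in Old kidneys, Pdgfra (log2 fold change 0.88, adjusted p = 0.0174) and Notch3 (0.65, adjusted p = 0.0313), and none lower; without Old 5 none of the 9 was called. Their list of 10 genes summed to 139 to 236 CPM in Old and 140.2 to 165 CPM in Young libraries and Gli1, one of its genes, had 1 to 2 counts in Old and 0 to 6 counts in Young libraries. For macrophages 7 of 9 markers were called higher, with sums of 107 to 552 CPM in Old and 111 to 138 CPM in Young libraries. Without Old 5, 5 were called higher and 1 lower. Csf1r, the largest part of the Young sums, went the other way, at 52.5 ± 20.6 CPM in Old and 73.2 ± 11.2 CPM in Young kidneys. For injured tubule cells 5 of 7 tested markers were called higher, with sums of 94.5 to 176 CPM in Old and 65.9 to 70.9 CPM in Young libraries; without Old 5, 4 were called. For podocytes 2 of 7 were called higher, with sums of 236 to 274 CPM in Old and 193 to 219 CPM in Young libraries. Without Old 5, 1 was called. Of 10 endothelium markers 1 was called higher and 1 lower, and of 7 proximal tubule markers 1 higher and 1 lower. None was called of 4 thick ascending limb, 6 urothelium and 5 adipocyte markers. In the treated libraries the macrophage sums were 141 to 156 CPM in Old + YM and 151 to 249.6 CPM in Old + PM, the fibroblast, pericyte and smooth muscle sums 159 to 234 CPM in Old + YM and 124 to 207 CPM in Old + PM, and the injured tubule sums 123 to 155 CPM in Old + YM and 84.8 to 138 CPM in Old + PM. The part of these cells in the matrix gene differences was not tested.

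The Old + YM and Old + PM kidneys were next set against the same Young libraries, so these comparisons share their controls with Old against Young. In Old + YM kidneys 3 of the 33 matrix genes were called higher and none lower, where 6.42% of all genes were called higher and 9.63% lower. Old + PM kidneys had 2 called higher and none lower, where 2.93% of all genes were called higher and 3.64% lower. Mgp and Loxl1 were called higher in all 3 comparisons with Young. The medians over the 33 genes were 0.51 in Old + YM and 0.45 in Old + PM, with 0.02 and -0.01 over all genes, and 9 and 12 of the genes (27.3% and 36.4%) had an unadjusted p under 0.05, where 32.2% and 21.9% of all genes did. Groups that did not overlap were common: of all genes, 12% lay wholly above and 14.1% wholly below Young in Old + YM, and 6.95% and 8.35% in Old + PM.

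**Figure D4:**
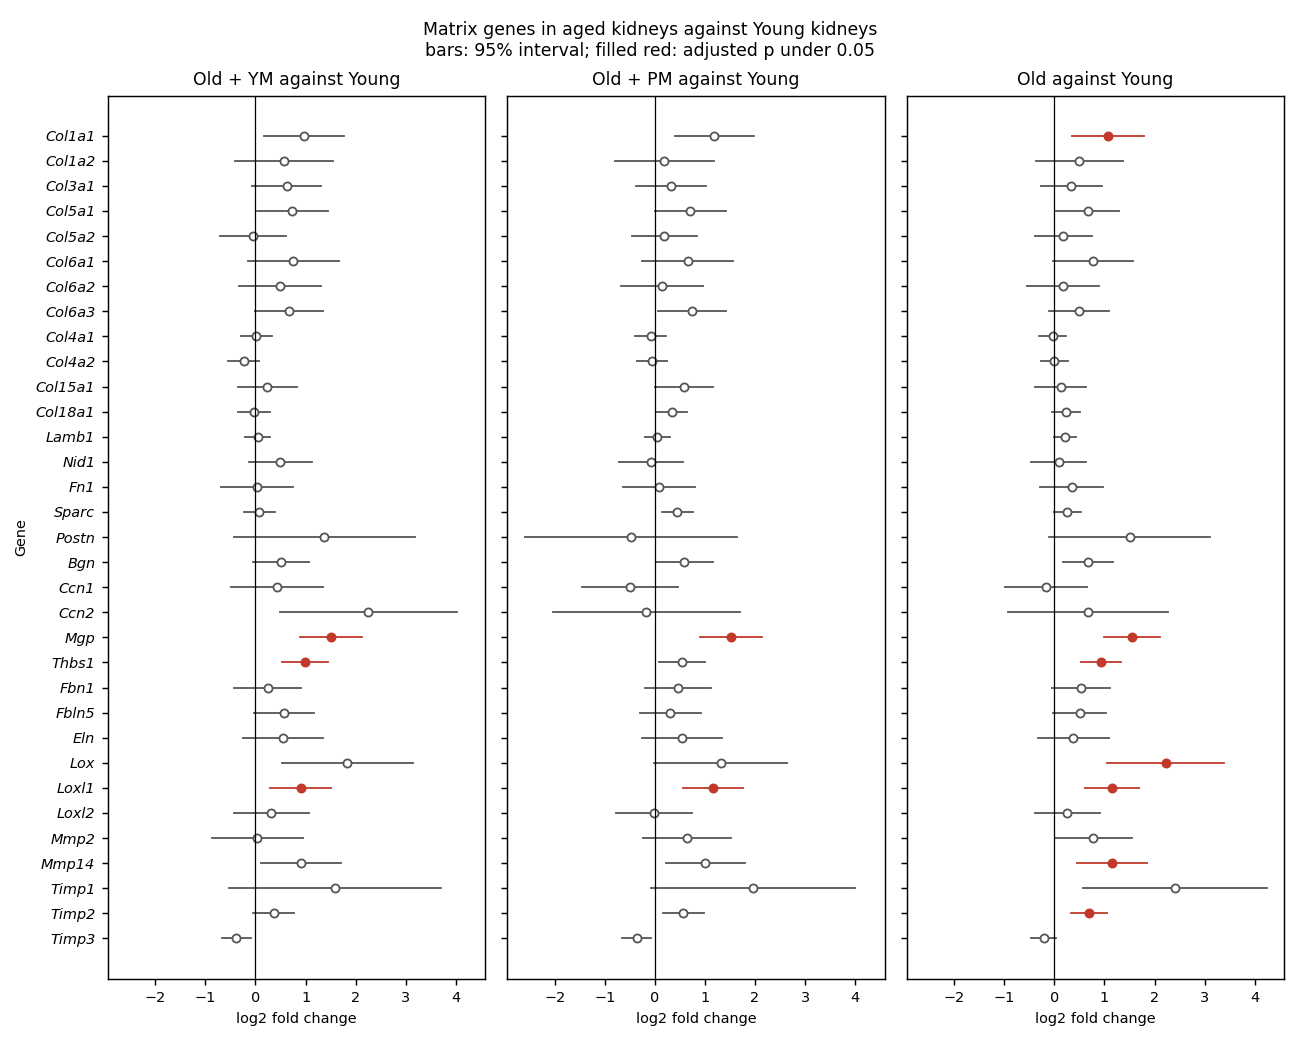
Points are log2 fold changes against Young for Old + YM, Old + PM and Old (left to right), bars their 95% intervals, and filled red points mark adjusted p under 0.05. Most points lie right of 0 in each panel; Mgp and Loxl1 are red in all 3, Thbs1 in Old + YM and Old, and the type IV collagen chains Col4a1 and Col4a2 lie near 0.

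Mgp had 432, 389 and 324 CPM in the Old + YM libraries, all above the highest Young library at 156 CPM (log2 fold change 1.51, SE 0.29, adjusted p = 0.00365). In the Old + PM libraries Mgp had 429, 541 and 175 CPM, again all above Young, with the same log2 fold change of 1.51 (SE 0.29, adjusted p = 0.00751). Old + PM 3 was the closest to Young. Without Old + PM 2 the value was 1.18 and the call was lost (adjusted p = 0.0637). Loxl1 had 24.5, 18.98 and 19.9 CPM in Old + YM (log2 fold change 0.90, SE 0.29, adjusted p = 0.0414) and 26.2, 32.6 and 16.7 CPM in Old + PM (1.16, SE 0.29, adjusted p = 0.0229), with Young at 8.13 to 14.5 CPM. All 6 treated libraries were above the Young range. In Old + YM the call of Loxl1 was lost without Young 2, Young 4, any single Old + YM library or Old + PM 1 (adjusted p from 0.0507 to 0.147), and in Old + PM without Young 4, Old + PM 1 or Old + PM 2 (0.0536 to 0.167).

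Thbs1 had 8.38, 10.6 and 7.98 CPM in Old + YM, with Young at 3.46 to 5.27 CPM (log2 fold change 0.99, SE 0.22, adjusted p = 0.00518). In Old + PM it had 6.24, 8.05 and 5.49 CPM, a log2 fold change of 0.55 that did not pass (adjusted p = 0.143). Col1a1 had the third smallest p in Old + PM and did not pass, at 18.5, 20.9 and 13.7 CPM (log2 fold change 1.19, SE 0.37, adjusted p = 0.0687). Without Old 5, Col1a1 was called in Old + PM (1.19, adjusted p = 0.00574). In Old + YM Col1a1 had 16.3, 15.8 and 13.6 CPM (log2 fold change 0.97, adjusted p = 0.0900). Both sets lay above the highest Young library, at 9.60 CPM. Of the other genes called in Old, Lox had log2 fold changes of 1.83 in Old + YM (adjusted p = 0.0518) and 1.31 in Old + PM (0.235), Mmp14 of 0.91 (0.106) and 1.01 (0.120), and Timp2 of 0.36 (0.210) and 0.57 (0.0871). Timp3 was lower than in every Young library in both treated groups, with log2 fold changes of -0.38 in Old + YM (adjusted p = 0.0661) and -0.36 in Old + PM (0.124), neither past the threshold.

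The number of calls in these 2 comparisons depended on single libraries. In Old + YM it was 5 without Old 2 or without Old + PM 3, and 7 without Old 5, where 6 were higher and Timp3 lower. In Old + PM it was 0 without Old + PM 2, 1 without Old + PM 1 or Young 4, 4 without Old 2 or Old 4, and 5 without Old 5 or Old + PM 3. With Old 5 and Old + PM 3 both left out, Old + YM had 9 calls, of which 8 were higher, and Old + PM had 11, of which 9 were higher. The Old + PM median was 0.16 without Old + PM 2. Calls over all genes changed with single libraries too, as given at the end. In Old + PM against Young they were also fewest without Old + PM 2 and most without Old 5. These counts therefore do not single out the matrix genes.

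The question of the treatments is whether the matrix genes differed between treated and untreated aged kidneys. As no age at sampling is given for Old, a difference in age could not be told apart from the formulas. No matrix gene passed in Old + YM against Old or in Old + PM against Old, and none passed between the formulas. Of all 14665 genes, 0.0205% were called between Old + YM and Old, 0% between Old + PM and Old, and 0% between the formulas. In edgeR's test 0, 1 and 3 of the 33 matrix genes (0%, 3.03% and 9.09%) had an unadjusted p under 0.05 in these 3 comparisons. Of all genes, 9.48%, 6.16% and 12.8% did, and 1 gene alone is 3.03% of the 33. DESeq2 and limma-voom called none of the 33 in any of the 3. The medians over the 33 genes were -0.10, -0.12 and 0.00, and those of all genes -0.03, -0.02 and 0.01. Without Old 5 the medians against Old were 0.13 for Old + YM and 0.09 for Old + PM. The Old + PM median against Old was 0.11 without Old + PM 3 and -0.29 without Old + PM 2, and that between the formulas was 0.26 and -0.21. A p-value that misses the threshold does not show that the groups were alike.

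**Figure D5:**
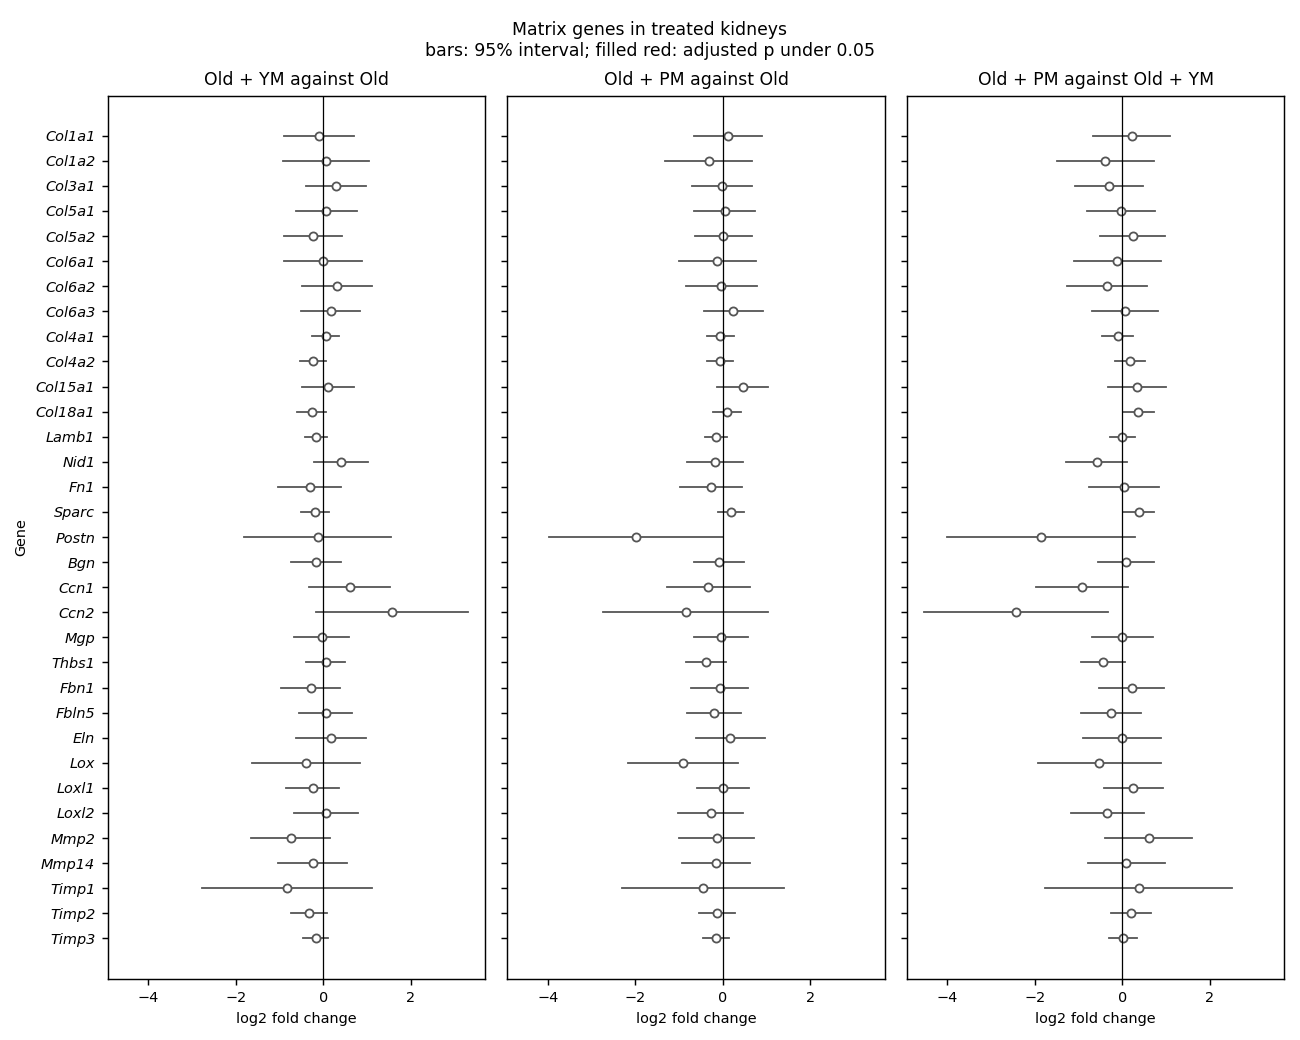
Points are log2 fold changes, from left to right, for Old + YM over Old, Old + PM over Old, and Old + PM over Old + YM, with 95% intervals as bars. No point is filled, and the widest bars belong to Postn, Timp1, Ccn2 and Lox.

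For the 7 genes called in Old against Young the intervals were wide. Mgp had a log2 fold change of -0.04 in both Old + YM and Old + PM against Old, with a 95% interval from -0.67 to 0.59 in each. The interval of Loxl1 ran from -0.85 to 0.37 in Old + YM and from -0.59 to 0.61 in Old + PM, and that of Lox from -1.62 to 0.85 and from -2.17 to 0.36. Thbs1 had a log2 fold change of 0.06 in Old + YM (interval -0.39 to 0.50) and of -0.39 in Old + PM (interval -0.84 to 0.07, adjusted p = 0.843). Timp2 had intervals from -0.75 to 0.09 and from -0.54 to 0.29, Mmp14 from -1.03 to 0.55 and from -0.93 to 0.63, and Col1a1 from -0.90 to 0.70 and from -0.66 to 0.90. Each interval holds 0.

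The smallest p in Old + YM against Old belonged to Ccn2, which had 122, 147 and 72.8 CPM in Old + YM, against 53.9, 21.8, 43.5, 7.41 and 64.1 CPM in Old. All 3 Old + YM libraries were above all Old libraries, as for 5.15% of all genes, and Ccn2 did not pass (log2 fold change 1.58, SE 0.80, adjusted p = 0.570). In Old + PM Ccn2 had 39.9, 19.8 and 3.52 CPM. Between the formulas it had the smallest p as well, with a log2 fold change of Old + PM over Old + YM of -2.43 (SE 0.97, 95% interval -4.53 to -0.32, adjusted p = 0.339). Every Old + PM library was below every Old + YM library, as for 11.9% of all genes, and the difference did not pass. The sum of 5 adipocyte markers was 94.7 to 163 CPM in Old + YM, against 21.9 to 77.7 CPM in Old + PM and 37.4 to 69.6 CPM in Old libraries. In Young libraries it was 24.0 to 139 CPM. Most of the sum was Fabp4, with means of 96.4 CPM in Old + YM, 40.9 CPM in Old + PM and 48.6 CPM in Old. Adipoq had 5 to 39 counts in Old + YM, 0 to 36 in Old + PM and 0 to 16 in Old libraries. None of the 5 was called, and their part in the Ccn2 values was not tested. Urothelium markers summed to 7.87 to 21.5 CPM in Old + YM, 3.001 to 11.2 CPM in Old + PM and 3.65 to 14.9 CPM in Old libraries. Ccn1, the related gene, had 5.22, 6.99 and 22.4 CPM in Old + PM and 25.9, 28.6 and 11.04 CPM in Old + YM, groups that overlapped (log2 fold change -0.93, adjusted p = 0.441).

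Next by p in Old + YM against Old were Col18a1 (log2 fold change -0.27, adjusted p = 0.600) and Mmp2 (-0.74, adjusted p = 0.602), neither of which passed. In Old + PM against Old the smallest p was that of Postn, with 1, 1 and 5 counts in Old + PM, against 19, 3, 1, 10 and 14 counts in Old (log2 fold change -1.99, adjusted p = 0.801). It was followed by Thbs1, given above, and Col15a1 (0.45, adjusted p = 0.843). Between Old + PM and Old + YM, Sparc (0.37, adjusted p = 0.358) and Col18a1 (0.37, adjusted p = 0.379) followed Ccn2, and neither passed. For both, all Old + PM libraries were above all Old + YM libraries, as for 11.9% of all genes.

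A wider list of 133 further matrix genes, also chosen with earlier results of these data known, was read beside the 34. Of the 133 genes, 113 were tested. In Old against Young 18 were higher (15.9%, against 6.47% of all genes) and 8 lower (7.08%, against 7.13% of all genes), with a median log2 fold change of 0.28. Among 22 other glycoproteins 7 were higher and none lower, among 12 other collagens 1 was higher and 1 lower, and among 23 other proteases 3 were higher and 3 lower. Leaving out 1 library gave, in place of 26 calls, 17 (Young 1), 15 (Young 2), 13 (Young 3), 13 (Young 4), 15 (Old 1) and 12 (Old 5). Calls over all genes fell as well without Young 4 or Old 5, as given at the end. The 10 largest differences at 5 CPM or more went both ways. Lower in Old kidneys were the proteases Adamts15, at a mean of 7.98 ± 1.72 CPM in Old, against 23.5 ± 5.64 CPM in Young kidneys (-1.55 on the log2 scale, adjusted p = 0.000113), and Mep1b, a meprin of the proximal tubule brush border, at 57.7 ± 20.6 CPM in Old, against 131 ± 9.23 CPM in Young kidneys (-1.18, adjusted p = 0.00154). Col4a3, a type IV collagen chain of the glomerular basement membrane, was at 23.9, 22.8, 24.5, 38.5 and 21.6 CPM in the Old libraries, against 49.4, 48.3, 55.1, 59.0 and 55.2 CPM in the Young libraries (-1.02, adjusted p = 0.00930). Every Old library was below every Young library for these 3 genes, as for 729 of all 14665 genes. An opposite-strand gene, C430014B12Rik, overlaps the last exon of Col4a3.

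Higher in Old kidneys were Tgfbi, a TGF-β-induced glycoprotein (log2 fold change 1.61, adjusted p = 0.00834), Spp1, or osteopontin (0.99, adjusted p = 0.00852), and Serpine2, an inhibitor of serine proteases (0.81, adjusted p = 0.00140). These 3 kept their calls in all 26 alternative fits. Ctss, a cathepsin of macrophages, had a log2 fold change of 2.24 (adjusted p = 0.0194), with 280.1 CPM in Old 5 and 32.5 to 62.9 CPM in the other Old libraries, against 18.1 to 20.8 CPM in Young; without Old 5 it was 1.19. Cd44, a receptor of hyaluronan, had a log2 fold change of 2.30 (adjusted p = 0.0458) and 26.4 CPM in Old 5, with 1.75 to 4.08 CPM in Old 1 to 4; leaving Old 5 out gave 0.91 (adjusted p = 0.190). Its call was lost in 18 of the 26 alternative fits, that of the collagen gene Col12a1 (1.11, adjusted p = 0.0393) in 14 and that of the protease gene Mmp11 (1.21, adjusted p = 0.0330) in 9. Without Old 5, Col12a1 had 1.12 (adjusted p = 0.0657) and Mmp11 had 1.09 (adjusted p = 0.0902), and neither was called.

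The treated groups against Young had 19 higher and 7 lower in Old + YM (16.8% and 6.19%, where 6.42% and 9.63% of all genes were called), and 6 higher and 5 lower in Old + PM (5.31% and 4.42%, where 2.93% and 3.64% of all genes were called). Serpine2, Tgfbi and Thbs2 were among those higher in all 3 comparisons with Young, and Adamts15, Col4a3, Itga6, Itgb1 and P4hb lower in all 3. In Old + YM against Young the genes of both plasminogen activators, proteases that turn plasminogen into plasmin, were called higher, with log2 fold changes of 2.72 for Plat (adjusted p = 0.0231) and 1.203 for Plau (adjusted p = 0.0144). Others of the 10 largest were Mrc2 (2.03), Spp1 (1.75), Mmp11 (1.46), Tgfbi (1.35) and Lama5 (1.01) higher and Adamts15 (-1.39) and Mep1b (-1.01) lower. In Old + PM against Young 8 genes met the rule for naming, Tgfbi (1.65), Serpine2 (0.83) and Col16a1 (0.83) higher and Adamts15 (-2.04), Col4a3 (-1.04), Itga6 (-0.87), Itgb1 (-0.54) and P4hb (-0.42) lower. The Old + YM count of 26 became 17 without Young 1, 16 without Young 4 and 13, 14 and 15 without Old + YM 1, 2 and 3. The Old + PM count of 11 became 7 without Young 3, 5 without Young 4, 7, 2 and 22 without Old + PM 1, 2 and 3. Calls over all genes were likewise fewest without Old + YM 1 and without Old + PM 2, so these counts do not single out the wider list. None of the 113 passed in Old + YM against Old, in Old + PM against Old or between the formulas in edgeR's test. There 9, 6 and 12 of them (7.96%, 5.31% and 10.6%) had an unadjusted p under 0.05, near the 9.48%, 6.16% and 12.8% of all genes.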

How the data were processed

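The authors counted reads of 16 kidney libraries by gene symbol. The deposited values are raw whole-number counts with no normalization, made by the authors. The submitters' processing notes name Bowtie2, bedtools and the mm10 build. The sources used here give no versions, no gene annotation, no strand setting and no rule for reads that align to several places. The tests were run with edgeR 4.0.16 under R 4.3.3. filterByExpr (minimum count 10) kept 14665 genes and removed 26214, Mmp7 among them, and TMM scaled the library sizes. All 16 libraries entered 1 robust quasi-likelihood fit with group as its term, so that all groups share 1 estimate of the spread. The 6 comparisons were tested two-sided, with Benjamini-Hochberg adjustment over all 14665 genes and a threshold of 0.05. Intervals (95%) come from the fit. At the lowest total, 8223008 counts, 10 counts are about 1 CPM, so genes such as Lox, Postn and Timp1 rest on few counts.

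All matrix genes are accounted for. Those past the threshold are described in full. Where fewer than 3 passed in a comparison, the 3 with the smallest p are given. Of the wider list, the 10 largest called log2 fold changes with a mean of at least 5 CPM in a group are named, except that 1 gene is not reported here. The members and lists were chosen with earlier results of these data known. Same-numbered libraries were not treated as pairs. No 2 libraries of a group held identical counts. Alternatives were DESeq2 1.42.0, RLE and upper quartile factors, no mitochondrial genes, no filter or a minimum count of 30, limma-voom (limma 3.58.1), the replicate block, only the groups compared, and each library left out. Leaving out Old 5 and Old + PM 3 together was chosen after seeing the data. Gene positions are from GENCODE M21 (GRCm38), where Ccn1 and Ccn2 stand under older symbols. Scripts were tested on simulated data.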

Additional observations from a re-analysis of the deposited data

Results flagged for a closer look

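In 9 of the 104 groups of 5 libraries examined, over the 33 matrix genes and the named genes of the wider list, 1 library stood apart from the other 4 by Dixon's criterion at 95%. Chance would mark about 1 group in 20 if the values were independent and normally distributed. These genes share their libraries, and the wider genes were named because they were called. The rates therefore cannot be set against each other. Of the 9, 6 were in Old and 3 in Young. Old 5 accounted for 4 of them, with 34.3 CPM of Col1a1 (other Old libraries 8.97 to 14.8), 10.9 CPM of Col6a2 (3.68 to 4.68), 26.4 CPM of Cd44 (1.75 to 4.08) and 280.1 CPM of Ctss (32.5 to 62.9). Old 4 had 38.5 CPM of Col4a3 (21.6 to 24.5) and 62.1 CPM of Plau (112 to 126). In Young, Young 4 had 3.56 CPM of Col1a1 (7.90 to 9.60), Young 1 had 93.6 CPM of Bgn (71.0 to 74.4) and Young 5 had 14.6 CPM of Plat (2.17 to 4.76).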

How the results depend on the processing

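In Old against Young, 5 to 9 matrix genes were called over the 26 alternatives, with Mgp, Thbs1, Loxl1, Timp2 and Lox in each. Col1a1 lost its call in 16 and Mmp14 in 8; Bgn was called in 4 and Timp1 in 2. For Old + YM against Young (3 calls), DESeq2 gave 7, the replicate block 5 (4 higher, 1 lower), a fit of only those 2 groups 12 (11 higher, 1 lower), the fit without Old 5 and Old + PM 3 gave 9, and leaving out 1 library gave 2 to 7. For Old + PM against Young (2 calls), these were 6 with DESeq2, 5 with only the 2 groups, 11 without Old 5 and Old + PM 3, and 0 to 5 with 1 library left out. The replicate block gave 3 there. Same-numbered libraries of different groups had correlations of -0.30 to 0.16 over 20 pairs, 3 of them over 0.1. The median was -0.004 for these pairs and -0.008 for pairs with different numbers. With 3 to 5 libraries per group, such values cannot exclude pairing or a shared batch. No matrix gene was called in the 3 comparisons among aged groups under any alternative. Col15a1 in Old + PM against Old reversed without Old + PM 2, at -0.0061, with values from -0.0061 to 0.78 when 1 library was left out. Over all genes, Old against Young had 1995 calls, but 1236 without Young 4 and 1208 without Old 5. Old + YM against Old had 3, but 49 with DESeq2, 6 with no filter, 5 with limma-voom, 6 with the replicate block, 20 with only the 2 groups and 0 to 39 (without Young 5) with 1 library left out. Old + PM against Old + YM had 0, but 58 with DESeq2, 8 with no filter, 2 with limma-voom, 1 with the replicate block, 13 with only the 2 groups and 32 without Young 5. Old + YM against Young (2354 calls) ran from 1060 (without Old + YM 1) to 3215 (without Young 5) and Old + PM against Young (963) from 197 (without Old + PM 2) to 1279 (without Old 5) with 1 library left out. In the wider list, a fit of only the 2 groups gave 17 calls in place of 26 in Old against Young and 41 in place of 26 in Old + YM against Young, and without Old 5 and Old + PM 3 the counts were 17 in Old against Young and 26 in place of 11 in Old + PM against Young. DESeq2 and the fit without Young 5 called 1 wider gene between the formulas. For the comparisons with Young, calls over all genes are given only for fits that left out 1 library. The other counts of matrix and wider genes therefore do not single these genes out. Where a call changed, the cause was not tested. Genes under about 1 CPM could show only large differences at this depth.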

Other observations

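Among 18 matrix receptors of the wider list, Old against Young gave 2 higher (11.1%) and 2 lower. Of all genes, 6.47% were called higher and 7.13% lower. The laminin and fibronectin receptor subunit Itgb1 averaged 126 ± 11.1 CPM in Old kidneys and 158 ± 11.2 CPM in Young kidneys (SD, n = 5 each; log2 fold change -0.32, adjusted p = 0.0230 in edgeR's quasi-likelihood test), and Itga6, a laminin receptor subunit, had a log2 fold change of -0.51 (adjusted p = 0.0266). Itgb5, a subunit of a vitronectin receptor, and Cd44 were higher, Itgb5 by 0.47 on the log2 scale (adjusted p = 0.0279). Among 15 genes of collagen processing, P4hb, the shared subunit of the collagen prolyl hydroxylases, averaged 264 ± 22.03 CPM in Old kidneys and 379.9 ± 25.5 CPM in Young kidneys (log2 fold change -0.52, adjusted p = 0.000981), and P4ha1, a catalytic subunit, was lower as well (-0.48, adjusted p = 0.0414). Itgb1, Itga6, Itgb5, P4hb and P4ha1 were picked out in this comparison after their values had been seen, and leaving out single libraries was not run for them in it. Summed markers of B and plasma cells were 63.9 to 186 CPM in Old libraries, against 5.72 to 17.4 CPM in Young libraries. Of 4 tested genes 2 were called higher, where 6.47% of all genes were.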
